A study of Mus musculus with 24 samples.

Results

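The genes described here are the nuclear genes of the mitochondrial respiratory chain, which encode the subunits of complexes I to V of the inner membrane and a family of complex I assembly factors. They were chosen by name: protein-coding genes whose symbols begin with Nduf, Uqcr, Atp5 or Cox4 to Cox8, together with Sdha, Sdhb, Sdhc, Sdhd and Cyc1, and with at least 240 reads summed over the 24 libraries. The rule took 92 of the 55385 genes that were counted, and 14045 protein-coding genes in all reached that minimum. Complex I gave 7 core subunits, 31 accessory subunits and 8 assembly factors, complex II 4 genes, complex III 9, complex IV 16 and complex V 17. Of the 95 protein-coding genes with such a symbol, 3 were under the minimum, namely Cox8c and a second locus named Atp5o with 0 reads each and Cox7b2 with 8. Cox6b2 with 413 reads and Cox4i2 with 1175 were the nearest above it. All 92 genes passed the filter on low counts.

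The libraries are bulk RNA-seq, with a selection of RNA not given in the sources used here, of the gastrocnemius, the large muscle of the calf, from female C57BL/6J mice. The study asked how muscle differs with age and whether Klotho, a circulating protein, alters aged muscle. There were 6 groups of 4 libraries: young sham and young GFP (both 3 to 6 months old), old GFP and old AAV-Kl (21 to 24 months), and oldest-old GFP and oldest-old AAV-Kl (27 to 29 months). Mice of the GFP and AAV-Kl groups received 3e8 vector genomes of an adeno-associated virus of serotype AAV8 in the tail vein and were killed 14 days later. The virus carried green fluorescent protein in the GFP groups and mouse Klotho in the AAV-Kl groups, both under LP1, a promoter active in liver, so the muscle itself was not the intended site of expression. What the sham treatment consisted of is not described in the study's methods, and for that group nothing beyond the sample labels says that the replicates were separate mice, so p-values there measure the spread between these samples, which may be technical. Library depth, as reads assigned to genes, ran from 36415886 to 59733985 with a median of 49486060.5, and the 92 genes took 1.495% of them in oldest-old GFP 4, the lowest share, and 2.001% in oldest-old AAV-Kl 3, the highest. Values are given as CPM, the reads of a gene relative to the library size after TMM scaling, and differences as log2 fold changes with their standard error (SE) and a p adjusted over all genes tested, called at an adjusted p under 0.05.

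Complex I takes electrons from NADH and complex II takes them from succinate, both pass them through coenzyme Q to complex III, and cytochrome c carries them on to complex IV, which reduces oxygen. Complexes I, III and IV pump protons, and complex V, the ATP synthase, uses the gradient to make ATP. Most subunits are encoded in the nucleus and imported, while a core set of complexes I, III, IV and V is encoded by mitochondrial DNA; muscle fibres differ in how much of this machinery they hold, and glycolytic fast fibres hold less than slow and type IIA fibres.

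The tissue was checked against 10 genes of fast fibres, among them Myh4, Myh1, Tnnt3 and Pvalb. All 10 were detected in each of the 24 libraries, with a summed level between 110784 and 162839 CPM, and Myh4, the myosin of type IIB fibres, was the most abundant of them in every library. The 10 slow and IIA fibre genes, with Myh2 on top, summed to between 3238 and 8372 CPM and were highest in oldest-old AAV-Kl 3 and oldest-old GFP 1. Their median log2 fold change was 1.35 between oldest-old and young GFP, with 7 of 10 called higher, against -0.31 for the fast fibre genes, of which Myh1 was called higher and Pvalb, a calcium buffer, lower. Of all 17476 genes tested, 1348 were called higher and 912 lower in that comparison. Without young GFP 1 and 3 edgeR called 0 genes of either list, with 7 slow fibre genes higher and 1 fast fibre gene higher and 4 lower at an unadjusted p under 0.05. Markers of other cells varied between libraries of 1 group, and the libraries that stood apart are named first.

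Keratinocyte genes (10 listed, such as Krt10, Krt77 and Lor) summed to 140.3, 1.40, 429.6 and 0.990 CPM in young GFP 1 to 4. Young GFP 1 and 3 held all 10, led by Krt77 and Krt5, while young GFP 2 and 4 held 4 and 3 of them, led by Krt10, with Krt5, Krt14 and Krt1 at 0. Young sham 4 with 161 CPM, old AAV-Kl 2 with 84.2 and oldest-old AAV-Kl 4 with 29.3 stood above the rest, which held 6.74 CPM or less. Hepatocyte genes (20 listed) reached 1287 CPM in old GFP 1, where Alb led, with 1287, 52.0, 49.5 and 225 CPM over old GFP 1 to 4 and 14.1 to 295 CPM in the libraries of other groups, where Trf, which other tissues express too, mostly led. Old GFP 1, 2 and 4 each held 19 of the 20, and young GFP 1 to 4 held 7, 10, 9 and 8, with Fgg and Apob at 0 in each of the latter. Erythroid genes (6 listed, Hbb-bs on top save in young GFP 3) summed to 605, 116, 90.2 and 665 CPM in oldest-old GFP 1 to 4, and endothelial genes (8 listed, Fabp4 on top) reached 1202 CPM in oldest-old AAV-Kl 2 against a median of 527 over the 24 libraries. Adipocyte genes, led by Car3, which muscle also expresses, summed to 5035 to 8619 CPM, fibroblast and tendon genes to 346 to 2093, macrophage genes to 50.9 to 255, lymphocyte genes to 1.68 to 49.8 and Schwann cell genes to 90.7 to 395. The part of these cells in the results was not tested. For comparisons with young GFP or old GFP, the calls among the 92 genes and their number at an unadjusted p under 0.05 are given below also without young GFP 1 and 3 or without old GFP 1 and 4. In bulk RNA, fewer fibres of a type and less RNA of a gene in each fibre cannot be told apart.

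Levels were compared between genes after division by the length of their exons. That length took in all annotated exons of a gene, 708 bases for Cox6b1 and 5628 for Ndufb2. Reads on several places or genes were not counted. Ranks and class medians therefore depend on the annotation as well as on the RNA. The highest of the 92, as a mean of 24 libraries, was Cox6a2, the heart and muscle form of complex IV subunit VIa, at 1155 CPM per kilobase. It was followed by Atp5a1 and Atp5b, the alpha and beta subunits of the ATP synthase catalytic head, at 549 and 528, and by Cox8b, the muscle form of subunit VIII, at 488. Together the 10 highest genes held 41.4% of the summed level per kilobase. At the other end stood Cox6b2, known from testis, at 0.308 CPM per kilobase, then Ndufb2 at 1.01 and Cox4i2, the lung form of subunit IV, at 1.25. Class medians per kilobase were 90.9 for complex I core subunits, 65.5 for its accessory subunits, 125 for complex II, 128 for complex III, 119 for complex IV and 66.8 for complex V. The complex I assembly factors, which help to build the complex and are not part of it, had a median of only 10.1 CPM per kilobase. Across libraries most genes varied little, and the most variable were Cox6a1, with a coefficient of variation of 32.3%, Cox6b2 with 31.2%, Cox8a with 23.4% and Ndufaf5 with 17.3%.

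**Figure D1:**
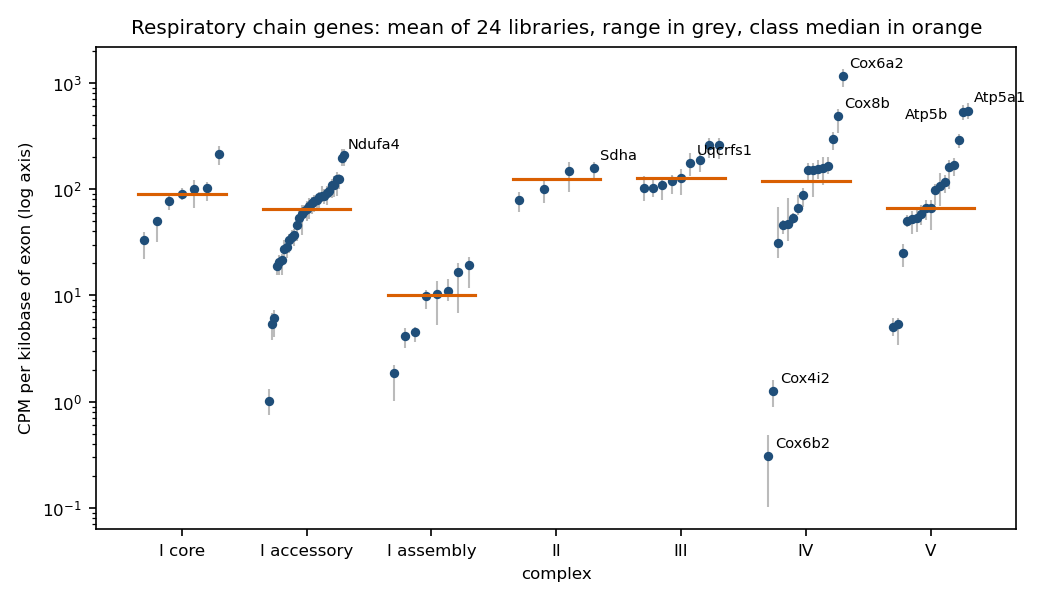
Level of each of the 92 genes in CPM per kilobase of exon (log axis), grouped by complex, as the mean of 24 libraries (points) with the range over libraries (grey lines) and the median of each class (orange). Cox6a2 stands highest at 1155 and Cox6b2 lowest at 0.308, and the assembly factors lie around a median of 10.1.

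Promoters of the 92 genes, called or not, were read for letters that known regulators of respiratory genes bind. RefSeq promoters of 300 bases on GRCm38.p6 were at hand for 73 of the 92 genes (78 promoters, since 5 genes had more than 1). The NRF1 core GCGCATGC, or GCATGCGC on the other strand, was found in 12 of the 78 (15.4%), against 2.71% of 32851 promoters of all genes. The ETS core CCGGAAG or CTTCCGG, read by GABPA among others, was in 18 (23.1%, against 8.86%), the YY1 core AAGATGGC or GCCATCTT in 10 (12.8%, against 2.75%) and the ERR letters AAGGTCA or TGACCTT in 8 (10.3%, against 4.72%). No motif of these 4 contains another, though an NRF1 core can overlap its own reverse complement. At least 1 of the 4 was in 37 promoters (47.4%, against 17.6%), of which 14 of 30 belonged to complex I accessory subunits, 8 of 16 to complex V and 3 of 12 to complex IV. A match of letters is a description and says nothing of binding. For each complex 1 stretch is shown, with motif letters in capitals: going from the greatest decrease in oldest-old mice down among the genes called, that of the first gene whose stretch itself held such letters. The stretch is the longest run without annotated exons, in GENCODE M21, between 150 bases before and 30 after the RefSeq start, with up to 30 bases of exon after it. Atp5j, with a greater decrease than Atp5g3, has an ETS and a YY1 core in 1 of its promoters but none of the letters in such a stretch.
Ndufaf5: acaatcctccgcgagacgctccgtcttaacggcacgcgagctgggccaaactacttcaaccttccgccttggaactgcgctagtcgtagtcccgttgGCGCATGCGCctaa
Sdhb: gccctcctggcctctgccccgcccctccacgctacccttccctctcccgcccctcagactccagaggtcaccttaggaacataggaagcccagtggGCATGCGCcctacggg
Uqcr11: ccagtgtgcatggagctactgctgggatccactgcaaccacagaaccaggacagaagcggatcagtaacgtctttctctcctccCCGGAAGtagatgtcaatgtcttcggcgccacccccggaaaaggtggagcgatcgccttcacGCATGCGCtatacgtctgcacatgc
Cox6b1: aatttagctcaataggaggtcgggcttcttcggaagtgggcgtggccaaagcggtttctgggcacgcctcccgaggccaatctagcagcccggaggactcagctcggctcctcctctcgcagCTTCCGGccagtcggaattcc
Atp5g3: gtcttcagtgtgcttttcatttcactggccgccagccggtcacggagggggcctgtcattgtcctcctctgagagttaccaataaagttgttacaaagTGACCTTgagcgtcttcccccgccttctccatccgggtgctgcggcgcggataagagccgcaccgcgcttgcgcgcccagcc
The Ndufaf5 stretch is chr2:140170565-140170675 (plus strand) and holds an NRF1 core on both strands, overlapping, just after the RefSeq start. The Sdhb stretch, chr4:140961121-140961232 (plus strand), has an NRF1 core on the other strand. The Uqcr11 stretch is chr10:80406801-80406971 (minus strand) with an ETS core and an NRF1 core on the other strand, the Cox6b1 stretch is chr7:30626122-30626264 (minus strand) with an ETS core on the other strand, and the Atp5g3 stretch is chr2:73911297-73911476 (minus strand) with the ERR letters on the other strand. Sdhb, Uqcr11 and Cox6b1 begin farther upstream in GENCODE than in RefSeq.

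Each library was described by the median, over the 92 genes, of the log2 deviation from the mean of all 24 libraries. Young GFP 1 to 4 had medians of 0.16, 0.17, 0.06 and 0.15, and young sham 1 to 4 had 0.10, -0.03, -0.01 and -0.00. In old GFP the values were -0.01, -0.02, 0.02 and -0.01, and in old AAV-Kl 0.01, -0.14, -0.12 and -0.03. Oldest-old GFP 1 to 4 had -0.05, 0.04, -0.05 and -0.36, and oldest-old AAV-Kl 1 to 4 had 0.02, -0.08, 0.15 and 0.04. Young GFP 1, 2 and 4 were the highest of the 24 libraries, followed by oldest-old AAV-Kl 3, young sham lay lower, and oldest-old GFP 4 was the lowest of all. In that library 5 of the 92 genes were above their mean over the 24 libraries, against 20, 66 and 19 in oldest-old GFP 1 to 3, and all 7 classes were low in it, from -0.28 for complex IV to -0.52 for the assembly factors. Over all genes tested oldest-old GFP 4 also stood apart from its group. The mean squared count difference between 2 libraries, scaled so that 1 is counting noise, was 139, 155 and 146 against oldest-old GFP 1 to 3. Between those 3 libraries it was 14.8 to 41.3. Summed levels of the 92 genes were 17589.7 ± 706 CPM in young sham, 19211 ± 841 in young GFP, 17328 ± 314 in old GFP, 16568 ± 864 in old AAV-Kl, 16396 ± 1727 in oldest-old GFP and 17806 ± 1363 in oldest-old AAV-Kl (mean ± SD, n = 4).

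**Figure D2:**
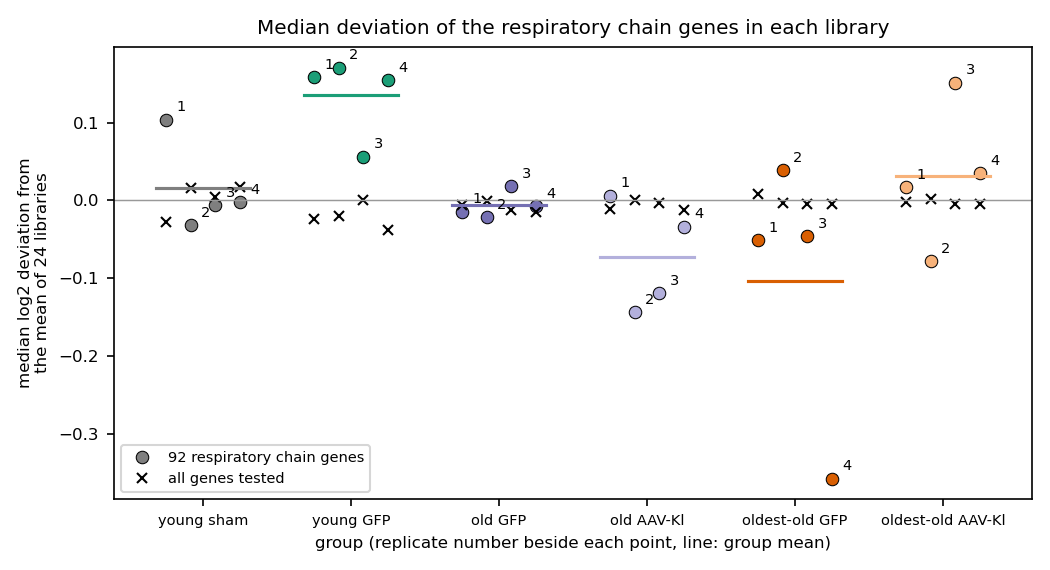
Median log2 deviation of the 92 genes from their mean over 24 libraries, for each library (circles, with replicate number) and for all genes tested (crosses), with group means as lines. Oldest-old GFP 4 lies at -0.36, young GFP 1, 2 and 4 at 0.16, 0.17 and 0.15, and the crosses stay close to 0. A cross is a median and does not show how far single genes of a library lie from it.

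Oldest-old GFP against young GFP was the comparison with the most differences. Here 37 of the 92 genes fell and none rose, where 12.9% of the 17476 genes tested were called in either direction and 5.22% were called lower. At an unadjusted p under 0.05, 69 of the 92 were lower (12.2% of all genes tested), and in 44 the 4 oldest-old libraries lay below all 4 young ones (8.11% of all genes tested). The median log2 fold change of the 92 was -0.23, with 88 below 0, against 0.03 over all genes tested, so single decreases were small. The calls were spread over the complexes: 2 of 7 core and 16 of 31 accessory subunits of complex I, 2 of 8 of its assembly factors, 2 of 4 genes of complex II, 3 of 9 of complex III, 4 of 16 of complex IV and 8 of 17 of complex V fell. The number called rested on single libraries. It was 22 without oldest-old GFP 1, 16 without oldest-old GFP 4, 10, 16 and 14 without young GFP 1, 2 or 4, and 4 without both young GFP 1 and 3, the libraries with keratinocyte RNA, where 59 were lower at an unadjusted p under 0.05. It was 6 when young sham stood in for young GFP, with a median of -0.12, and 4 in a fit of these 8 libraries alone, though 59 with DESeq2.

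Between old and young GFP only Atp5o fell, which was 1 of the 92 genes, near the share called lower among all genes tested (1.08%, with 3.55% called in either direction). At an unadjusted p under 0.05, 27 were lower (7.46% of all genes), and in 40 the old libraries lay below all young ones (7.0% of all genes). The median log2 fold change was -0.15 with 90 of the 92 below 0, against 0.00 over all genes tested. It was -0.02 against young sham, where 0 genes were called by edgeR. DESeq2 called 7 and an edgeR fit of the 8 libraries alone called 21, while 0 were called whichever of the 8 libraries was left out or without young GFP 1 and 3, old GFP 1 and 4, or all 4 of them. With these sets of libraries left out, edgeR put 18, 11 and 8 genes lower at an unadjusted p under 0.05. With single libraries left out edgeR put 14 to 37 lower, the fewest without young GFP 2, then 16 without old GFP 2 and 17 without old GFP 4 or young GFP 1. The 10 slow and IIA fibre genes were all above 0 here, with a median of 0.83. Of them 0 were called by edgeR, 1 by DESeq2 and 7 were higher at an unadjusted p under 0.05 (10.4% of all genes). That number was 5 to 7 with single libraries left out, 3 without young GFP 1 and 3, 6 without old GFP 1 and 4 and 2 without all 4. The part of fibre type in the values of the 92 genes was not tested.

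Oldest-old GFP against old GFP gave 0 calls by edgeR or DESeq2 (0% of all genes by edgeR). At an unadjusted p under 0.05, 4 of the 92 genes were lower (4.67% of all genes) and 1 higher (5.99%). Without oldest-old GFP 2 the number lower was 23, without oldest-old GFP 3 it was 8, and without oldest-old GFP 4, old GFP 3 or old GFP 4 it was 1. Without old GFP 1 and 4 edgeR called 0 and 0 were under that p. In Ndufa11, Uqcrb and Uqcrc1 the oldest-old libraries lay below all old ones (2.55% of all genes), and in Atp5l they lay above (3.16%), where Ndufa11 and Uqcrc1 were named after their values were seen. The median log2 fold change was -0.08, and it ranged from -0.13 to -0.01 as single libraries were left out, the latter without oldest-old GFP 4. These 3 comparisons of age share their groups and are not independent of each other.

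In old mice, AAV-Kl gave 0 calls among the 92 genes by edgeR or DESeq2 (0% of all genes by edgeR) and 0 at an unadjusted p under 0.05 (1.88% of all genes), and edgeR gave 0 of either without old GFP 1 and 4. In 4 genes, Uqcrq and, named after their values were seen, Ndufs7, Uqcrc1 and Cox4i1, the AAV-Kl libraries lay below all GFP ones (0.870% of all genes). The median log2 fold change was -0.06 with 81 below 0. In oldest-old mice it gave 0 calls by either tool (0.0114% of all genes, by edgeR), and 13 of the 92 were higher at an unadjusted p under 0.05 (3.61% of all genes). In 2 genes, Uqcrb and Uqcr11, the latter named after its values were seen, the AAV-Kl libraries lay above all GFP ones (1.29% of all genes), and the median was 0.14 with 3 below 0. Without oldest-old GFP 4 the median was 0.06 and 2 genes were under that p, and without oldest-old AAV-Kl 3 the median was 0.10 with 1. Without oldest-old GFP 2 or oldest-old AAV-Kl 2 the number was 46 or 31. The difference between the AAV-Kl responses at these ages was tested as well: 0 genes were called by edgeR or DESeq2 (0% of all genes by edgeR), 19 had a higher response in oldest-old mice at an unadjusted p under 0.05 (2.40% of all genes), and the median difference was 0.20. Without old GFP 1 and 4 edgeR called 0 and 10 were under that p. With single libraries left out the number was 6 without oldest-old AAV-Kl 3, 7 without old AAV-Kl 2, 10 without old AAV-Kl 3, 11 without oldest-old GFP 4, 12 without old GFP 3 or 4, 30 without oldest-old AAV-Kl 2 and 42 without oldest-old GFP 2.

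In young mice the GFP group was set against a sham group whose treatment is not described, so the vector alone was not tested. Young GFP against young sham gave 0 calls among the 92 genes by edgeR (0.471% of the 17836 genes tested) and 1 by DESeq2, Atp5l. At an unadjusted p under 0.05, 20 were higher (4.81% of all genes), in 13 the GFP libraries lay above all sham ones (4.56%), and the median log2 fold change was 0.13, against -0.03 over all genes tested. Without young GFP 1 and 3 edgeR called 0 and 16 were higher at an unadjusted p under 0.05. That number was 8 without young GFP 1, young GFP 2 or young sham 3, 12 without young GFP 4, 5 and 6 without young sham 2 and 4, and 32 without young sham 1. Young GFP is the control of both comparisons with young mice, so its height enters them directly.

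**Figure D3:**
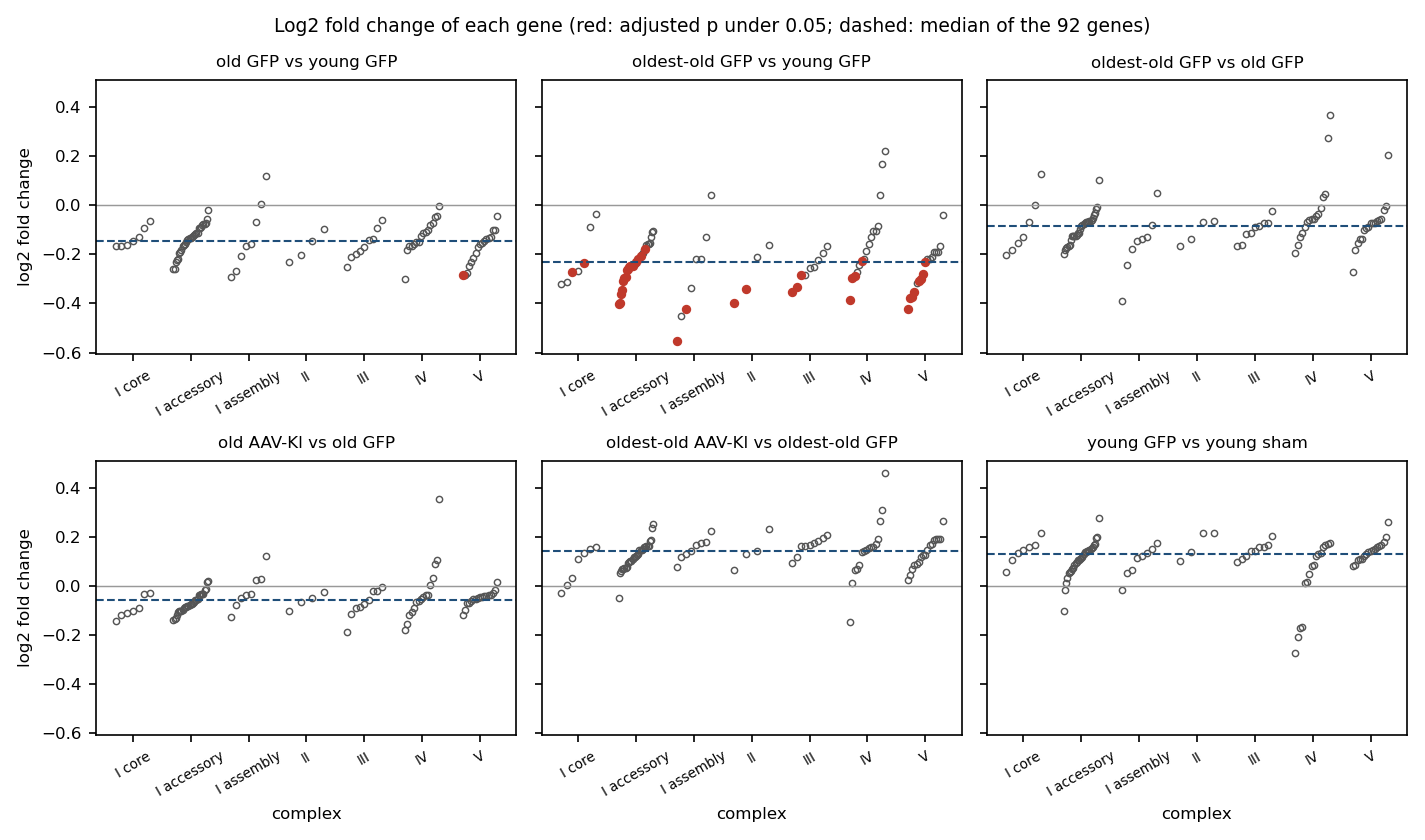
Log2 fold change of each of the 92 genes in the 6 comparisons of groups, by complex, with called genes in red and the median of the 92 as a dashed line. Red points appear for 37 genes in oldest-old against young GFP and for Atp5o in old against young GFP, and the medians are -0.15, -0.23, -0.08, -0.06, 0.14 and 0.13 from the first panel to the last.

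Among the core subunits of complex I, which hold the flavin and the iron-sulfur clusters, Ndufs3 and Ndufv2 fell in oldest-old mice. Ndufs3 (ENSMUSG00000005510.9, chr2:90894634-90904827, minus strand, GRCm38) encodes a subunit of the arm that reaches into the matrix. It stood at 188, 198, 179 and 185 CPM in young GFP 1 to 4 and at 161, 174, 164 and 139.5 in oldest-old GFP, with 165, 165, 172 and 166 in old GFP. Each oldest-old library was below each young GFP library, though young sham, at 180.3, 149.6, 164 and 152, overlapped both. The decrease from young to oldest-old GFP was called (log2 fold change -0.23, SE 0.068, adjusted p = 0.0319), and that from young to old was not (log2 fold change -0.17, SE 0.068, unadjusted p = 0.0256, adjusted p = 0.199), save in a fit of the 8 libraries alone (0.0461) (range over alternatives 0.0461 to 0.749). Against young sham they were -0.02 and 0.05. Young GFP itself was above young sham by 0.21 (SE 0.071, unadjusted p = 0.00645, adjusted p = 0.198). Ndufv2 (ENSMUSG00000024099.15), a subunit of the NADH-binding module, had 252, 249, 227 and 242 CPM in young GFP and 205, 221, 211 and 166 in oldest-old GFP. Its groups did not overlap, and oldest-old GFP 4 was lowest (log2 fold change -0.27, SE 0.081, adjusted p = 0.0339). Against young sham the log2 fold change of Ndufv2 was -0.11 and was not called (adjusted p = 0.357). With AAV-Kl the oldest-old libraries held 227, 195, 234 and 224 CPM, 3 of them above every GFP library of that age (log2 fold change 0.13, SE 0.081, unadjusted p = 0.115, adjusted p = 0.736), and without oldest-old GFP 4 the log2 fold change was 0.05.

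Both core calls were close to the threshold. The adjusted p of Ndufs3 was above 0.05 without oldest-old GFP 1 (0.0604), oldest-old GFP 4 (0.0885), young GFP 1 (0.0717), young GFP 2 (0.0855) or young GFP 4 (0.0594), and that of Ndufv2 without oldest-old GFP 1 (0.0578), oldest-old GFP 4 (0.0875), young GFP 1 (0.0886), young GFP 2 (0.0750) or young GFP 4 (0.0678). Over all alternatives it ran from 0.00401 to 0.890 for Ndufs3 and from 0.00651 to 0.357 for Ndufv2. The 7 core genes had a median log2 fold change of -0.27 in that comparison, -0.14 between old and young GFP and -0.13 between oldest-old and old GFP. Ndufs8, which carries iron-sulfur clusters, had the smallest p of this class between oldest-old and old GFP. Its levels were 65.9, 67.9, 68.0 and 62.6 CPM in old GFP and 59.9, 66.8, 62.4 and 41.0 in oldest-old GFP, with oldest-old GFP 4 far below the others and the groups overlapping (log2 fold change -0.20, SE 0.099, unadjusted p = 0.0588, adjusted p = 0.480), and without that library the log2 fold change was -0.07. Under AAV-Kl in old mice the smallest p was that of Ndufv1, the flavin-bearing subunit, at 238, 209, 214 and 228 CPM against 235, 241, 241 and 241 in old GFP (log2 fold change -0.11, SE 0.068, unadjusted p = 0.127, adjusted p = 0.9998).

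Accessory subunits surround the core and stabilise it. Of the 31 genes placed in this class by name, Ndufa4 and Ndufa4l2 among them, 16 fell in oldest-old mice. The class median was -0.23 against young GFP, with values from -0.40 to -0.10, and all 31 were below 0. With all libraries the greatest decreases were those of Ndufc1 and Ndufb2, both subunits of the membrane arm. Ndufc1 (ENSMUSG00000037152.11, chr3:51404677-51408988, minus strand) had 95.1, 90.2, 95.3 and 99.1 CPM in young sham, 103, 92.8, 94.4 and 106 in young GFP and 85.4, 84.4, 80.2 and 81.3 in old GFP. In oldest-old GFP it had 83.4, 84.9, 76.9 and 54.8, so that all 8 young libraries were above all 8 libraries of older GFP mice and oldest-old GFP 4 was apart at the bottom. It fell from young to oldest-old GFP (log2 fold change -0.40, SE 0.10, adjusted p = 0.0162), and the difference from young sham was called as well, at -0.34 with an adjusted p of 0.0256. Without young GFP 4 its adjusted p was 0.0515, and over the alternatives it ran from 0.00175 to 0.0940. Ndufb2 (ENSMUSG00000002416.13) had 7.42, 7.43, 5.93 and 6.37 CPM in young GFP and 4.92, 5.72, 5.78 and 4.20 in oldest-old GFP, and these groups did not overlap (log2 fold change -0.40, SE 0.11, adjusted p = 0.0229). That call was lost without oldest-old GFP 1 (0.0591), oldest-old GFP 4 (0.0693), young GFP 1 (0.0741) or young GFP 2 (0.0639), with a range of 0.00426 to 0.490 over the alternatives. Against young sham it was lost too, with a log2 fold change of -0.12 (adjusted p = 0.490). Gm16272 shares 2.8% of the exon bases of Ndufb2, Gm42420 2.6% and Braf 2.6%, and reads on these stretches were left out of its count.

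Ndufa4 (ENSMUSG00000029632.7, chr6:11900292-11907497, minus strand), named for complex I but also known as a subunit of complex IV, had 198 CPM per kilobase, second among the accessory genes to Ndufb11 with 208. It stood at 309.9, 327, 287 and 312 CPM in young GFP, 254, 260.3, 271 and 268 in old GFP and 249.9, 268, 259 and 227 in oldest-old GFP. Every old and oldest-old GFP library was below every young GFP library, and young sham, at 306, 264, 279.7 and 280.0, overlapped all of them. The decrease in oldest-old mice was called (log2 fold change -0.30, SE 0.067, adjusted p = 0.00884), and no single library left out ended it, but it was lost against young sham (log2 fold change -0.17, adjusted p = 0.0963) (range over alternatives 0.000131 to 0.0963). In old mice the log2 fold change was -0.23 (SE 0.067, adjusted p = 0.0660), under 0.05 by DESeq2 (0.0146), in fits of the 8 libraries alone (0.0248) and all 24 (0.0496) and with the strand columns summed (0.0483) (alternatives 0.0146 to 0.420). Its paralog Ndufa4l2, a gene known to respond to low oxygen, had 6.95, 7.30, 5.67 and 5.96 CPM in young GFP and 5.53, 6.46, 5.87 and 5.37 in oldest-old GFP (log2 fold change -0.16, adjusted p = 0.458, and -0.22 to -0.09 with single libraries left out).

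Other accessory genes were named by their p in a comparison without calls. Ndufa12 had 123, 115, 125 and 129.8 CPM in old GFP and 108, 116, 112 and 92.1 in oldest-old GFP, and 1 oldest-old library reached into the old range (log2 fold change -0.20, SE 0.068, unadjusted p = 0.00856, adjusted p = 0.362). Ndufa11, a membrane-arm subunit, had 50.7, 49.1, 52.9 and 49.6 CPM in old GFP and 52.3, 42.0, 43.6 and 46.3 in old AAV-Kl (log2 fold change -0.13, SE 0.088, unadjusted p = 0.147, adjusted p = 0.9998). Ndufab1 (ENSMUSG00000030869.11), the acyl carrier protein of mitochondria, was at 40.0, 41.7, 37.8 and 28.1 CPM in oldest-old GFP and 41.6, 42.2, 49.7 and 42.3 in oldest-old AAV-Kl. The groups touched, with oldest-old GFP 4 lowest and oldest-old AAV-Kl 3 highest (log2 fold change 0.25, SE 0.096, unadjusted p = 0.0170, adjusted p = 0.657), and without oldest-old GFP 4 the log2 fold change was 0.14. The AAV-Kl response of Ndufab1 was 0.36 greater in oldest-old than in old mice (SE 0.14, unadjusted p = 0.0175, adjusted p = 0.938). Ndufa2, which shares 11.5% of its exon bases with Tmco6 on the other strand in counts that ignore strand, had 55.3, 44.4, 45.3 and 44.9 CPM in young sham and 53.8, 55.0, 51.4 and 57.0 in young GFP (log2 fold change 0.19, SE 0.077, unadjusted p = 0.0198, adjusted p = 0.281).

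Of the 8 complex I assembly factors, Ndufaf4 and Ndufaf5 fell in oldest-old mice and the class median was -0.28. Ndufaf4 (ENSMUSG00000028261.13, chr4:24898083-24905001, plus strand) acts in an early step of assembly. Its levels were 45.5, 43.3, 45.8 and 47.5 CPM in young sham, 55.4, 47.9, 48.5 and 53.7 in young GFP, 39.2, 43.5, 39.7 and 45.3 in old GFP and 39.7, 41.7, 36.6 and 35.2 in oldest-old GFP. Young GFP lay above all libraries of the other 3 groups, and oldest-old GFP 4, low for most genes, was here close to its neighbours. The decrease from young to oldest-old GFP (log2 fold change -0.42, SE 0.091, adjusted p = 0.00660) remained called without any single library, but not without young GFP 1 and 3 (0.0604) or against young sham (0.0594), and its adjusted p ran from 0.000149 to 0.0604 over the alternatives. From young to old GFP the difference was -0.29 (SE 0.091, adjusted p = 0.0817), under 0.05 by DESeq2 (0.0344) and in a fit of the 8 libraries alone (0.0320) (alternatives 0.0320 to 0.531). Ndufaf5 (ENSMUSG00000027384.6, chr2:140170649-140203689, plus strand), which modifies a core subunit during assembly, had 35.0, 36.4, 33.3 and 33.3 CPM in young GFP and 25.0, 30.2, 26.5 and 12.3 in oldest-old GFP. Oldest-old GFP 4 was far below its group, whose mean was 23.5 ± 7.82 CPM (SD, n = 4), and the other 3 were also below all young GFP libraries (log2 fold change -0.55, SE 0.18, adjusted p = 0.0493). With all libraries this was the greatest decrease among the 37 and had the highest adjusted p of them, but without oldest-old GFP 4 it was -0.34, smaller than that of Ndufaf4 with any library left out (-0.47 to -0.39). The call was lost without oldest-old GFP 1 (0.0753), oldest-old GFP 3 (0.0546), young GFP 1 (0.0980), young GFP 2 (0.0978), young GFP 3 (0.0767) or young GFP 4 (0.0833), with a range of 0.0176 to 0.171 over the alternatives. It was lost too against young sham (log2 fold change -0.40, adjusted p = 0.119) and in a fit of the 8 libraries alone (0.160).

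With AAV-Kl, Ndufaf4 stood at 40.0, 35.7, 35.3 and 42.4 CPM in old mice (log2 fold change -0.13, SE 0.091, unadjusted p = 0.174, adjusted p = 0.9998). Ndufaf5 had 31.9, 28.3, 30.7 and 32.2 CPM in old GFP, with oldest-old GFP 2 inside that range and the other 3 oldest-old libraries below it (log2 fold change -0.39, SE 0.18, unadjusted p = 0.0428, adjusted p = 0.456). Without oldest-old GFP 4 this log2 fold change was -0.17. Ndufaf7, a methyltransferase needed for assembly, had 14.2, 14.3, 14.7 and 11.2 CPM in oldest-old GFP and 14.7, 14.4, 14.9 and 17.3 with AAV-Kl (log2 fold change 0.18, SE 0.085, unadjusted p = 0.0515, adjusted p = 0.699). Without oldest-old GFP 4 that was 0.09, and without oldest-old AAV-Kl 4 it was 0.11. Its AAV-Kl response differed between the ages by 0.21 (SE 0.12, adjusted p = 0.938), and by 0.13 without oldest-old GFP 4.

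Complex II is also an enzyme of the TCA cycle, and its 4 subunits are all nuclear. Sdhb and Sdhd fell in oldest-old mice, Sdha and Sdhc were at -0.21 and -0.16 (adjusted p = 0.0762 and 0.230). Sdhb (ENSMUSG00000009863.14, chr4:140961203-140979193, plus strand) encodes the iron-sulfur subunit. It had 345, 319, 329.8 and 344 CPM in young sham, 399, 407, 363 and 385 in young GFP, 320.0, 331, 336 and 336 in old GFP and 317, 356, 295 and 212 in oldest-old GFP. Young GFP was above the other 3 groups without overlap, and oldest-old GFP 4 was far under its own group. The decrease to oldest-old GFP was called (log2 fold change -0.40, SE 0.11, adjusted p = 0.0243). Against young sham it was -0.18 and was not called, and the call was lost without young GFP 1 (0.0623), young GFP 2 (0.0583) or young GFP 4 (0.0508) (alternatives 0.00390 to 0.242). Sdhd (ENSMUSG00000000171.5, chr9:50596357-50603812, minus strand), a membrane anchor, had 138, 118, 115 and 117 CPM in young sham, 144, 149, 133 and 141 in young GFP, 123, 119.7, 129 and 122 in old GFP and 119, 125, 113 and 90.7 in oldest-old GFP. Old and oldest-old GFP were below all young GFP libraries, and young sham 1 lay within the young GFP range. The other 3 young sham libraries were below all of old GFP and within the range of oldest-old GFP. The decrease to oldest-old GFP was called (log2 fold change -0.34, SE 0.079, adjusted p = 0.0101) and held without each library in turn. It was lost in a fit of the 8 libraries alone (0.0698), without young GFP 1 and 3 (0.0540) and against young sham (0.312) (alternatives 0.000389 to 0.312). Against young sham it was -0.12 in oldest-old and 0.01 in old mice, where young GFP gave -0.20 (SE 0.079, adjusted p = 0.173), and 0.0304 in a fit of the 8 libraries alone (alternatives 0.0304 to 0.947). Young GFP exceeded young sham by 0.22 (SE 0.079, unadjusted p = 0.0131, adjusted p = 0.248).

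AAV-Kl in old mice left Sdhb at 332, 281, 305 and 316 CPM (log2 fold change -0.10, SE 0.11, unadjusted p = 0.367, adjusted p = 0.9998), and in oldest-old mice at 362, 306, 373 and 345 (log2 fold change 0.23, SE 0.11, unadjusted p = 0.0485, adjusted p = 0.694). These last libraries overlapped those of oldest-old GFP. The response at these ages differed by 0.33 (SE 0.16, unadjusted p = 0.0454, adjusted p = 0.938), and the response in oldest-old mice ran from 0.10 to 0.34 as single libraries were left out. Without oldest-old GFP 4 that response was 0.10 and the difference 0.20, and without old AAV-Kl 2 the response in old mice was -0.06.

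In complex III, Uqcrb, Uqcrfs1 and Uqcr11 fell in oldest-old mice, and the class median was -0.26. Uqcrb (ENSMUSG00000021520.4, chr13:66900617-66905378, minus strand), a small subunit near the quinone site, had 267, 243, 242 and 264 CPM in young GFP, 217, 212, 227 and 238 in old GFP and 211, 209, 205 and 172 in oldest-old GFP. Every oldest-old library was below every old GFP library, and every old one below every young one. This decrease was called (log2 fold change -0.35, SE 0.071, adjusted p = 0.00478) under each of the alternatives, with an adjusted p of 2.97e-05 to 0.0453, that against young sham included. Between oldest-old and old GFP it was -0.17 (SE 0.071, unadjusted p = 0.0304, adjusted p = 0.435), and -0.10 without oldest-old GFP 4. With AAV-Kl the oldest-old libraries held 233, 213, 248 and 225 CPM, all above oldest-old GFP (log2 fold change 0.20, SE 0.071, unadjusted p = 0.00990, adjusted p = 0.628), and the difference was 0.14 to 0.24 as libraries were left out. Uqcrb shares 5.7% of its exon bases with Gm10767, and reads that met both genes were counted for neither.

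Uqcrfs1 (ENSMUSG00000038462.3, chr13:30540308-30545362, minus strand) encodes the Rieske iron-sulfur protein. It stood at 264, 221, 236 and 237 CPM in young sham, 277, 295, 243 and 286 in young GFP, 231, 229, 240.2 and 226 in old GFP and 227, 239.8, 225 and 181 in oldest-old GFP. Young GFP was above old and oldest-old GFP without overlap, and young sham overlapped all 3. From young to oldest-old GFP it fell (log2 fold change -0.33, SE 0.084, adjusted p = 0.0151), and no single library ended the call. It was lost in a fit of the 8 libraries alone (0.0768) and against young sham (log2 fold change -0.13, adjusted p = 0.292) (alternatives 0.00114 to 0.292). From young to old GFP it was -0.25 (SE 0.084, unadjusted p = 0.00805, adjusted p = 0.109), with 0.0391 in a fit of the 8 libraries alone (alternatives 0.0391 to 0.789), and from sham to GFP 0.20 (SE 0.082, adjusted p = 0.294). Uqcrq, a small subunit, had 186, 198, 185 and 176 CPM in old GFP and 176, 143, 166 and 169 in old AAV-Kl, against 184, 192, 186 and 147 and 201, 183, 241 and 186 in the oldest-old groups. With AAV-Kl its log2 fold change was -0.19 at the first age (adjusted p = 0.9998) and 0.20 at the second, where the libraries overlapped, and neither was called. The latter was 0.11 without oldest-old GFP 4 and 0.10 without oldest-old AAV-Kl 3. The difference of these responses was 0.38 (SE 0.13, unadjusted p = 0.00828, adjusted p = 0.938), which did not pass.

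Complex IV had 4 calls of 16, the smallest share beside that of the assembly factors, and a median of -0.17 in oldest-old against young GFP, with values from -0.39 to 0.22. In these counts Ndufa4, which was called, stood under complex I by its name. Cox7c and Cox5a, which are expressed in most tissues, fell most with all libraries in the fit. Cox7c (ENSMUSG00000017778.14, chr13:86044816-86046904, minus strand), a small membrane subunit, had 190.2, 174, 188 and 194 CPM in young sham, 226, 215, 197 and 201 in young GFP, 156, 165, 189 and 171 in old GFP and 163, 183, 172 and 123 in oldest-old GFP. All libraries of older GFP mice were below all of young GFP, and old GFP 3 was near to them. Its decrease in oldest-old mice was called (log2 fold change -0.39, SE 0.096, adjusted p = 0.0143), also without each single library. The call was lost in a fit of the 8 libraries alone (0.0804), without young GFP 1 and 3 (0.0948) and against young sham (log2 fold change -0.22, adjusted p = 0.116) (alternatives 0.00122 to 0.116). In old mice the log2 fold change was -0.30 (SE 0.096, adjusted p = 0.0934), under 0.05 by DESeq2 (0.0424) and in a fit of the 8 libraries alone (0.0301) (alternatives 0.0301 to 0.676). Cox5a (ENSMUSG00000000088.7, chr9:57521274-57532426, plus strand), a matrix-side subunit, had 214, 211, 191 and 207 CPM in young GFP and 176, 180.3, 171 and 142 in oldest-old GFP. The ranges did not meet (log2 fold change -0.30, SE 0.078, adjusted p = 0.0190), and the call was lost without oldest-old GFP 4 (0.0533) or young GFP 1 (0.0576) (alternatives 0.00163 to 0.159). Against young sham the log2 fold change was -0.17 and was not called. Cox5a shares 12.8% of its exon bases with Gm26631, and reads that met both were counted for neither.

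Cox6b1 (ENSMUSG00000036751.7), which faces the space between the membranes, had 237, 228, 221 and 229 CPM in young GFP, 207, 210.1, 202 and 164 in oldest-old GFP and 207, 216, 242 and 217 in oldest-old AAV-Kl. It fell from young to oldest-old GFP (log2 fold change -0.23, SE 0.071, adjusted p = 0.0450) in a call that ended without oldest-old GFP 3 (0.0591), oldest-old GFP 4 (0.108), young GFP 1 (0.112), young GFP 2 (0.0773), young GFP 3 (0.0613) or young GFP 4 (0.0887) (range 0.00775 to 0.181). Its AAV-Kl libraries overlapped the GFP libraries (log2 fold change 0.17, SE 0.071, unadjusted p = 0.0269, adjusted p = 0.657). Without oldest-old GFP 4 these log2 fold changes were -0.15 and 0.10. Between young sham and oldest-old GFP the log2 fold change of Cox6b1 was -0.15 and was not called. Cox5b, a zinc-binding subunit, had 243, 243, 239.7 and 231 CPM in old GFP, 246, 198, 218 and 197 in old AAV-Kl, 231, 246, 229 and 180.1 in oldest-old GFP and 251, 235, 278 and 246 in oldest-old AAV-Kl. Old AAV-Kl 1 was above old GFP while the other 3 were below it, and the difference of the AAV-Kl responses was 0.35 (SE 0.12, unadjusted p = 0.0101, adjusted p = 0.938). Cox4i1, the usual form of subunit IV, had 262, 238, 249 and 252 CPM in young sham and 289.5, 295, 256 and 275 in young GFP (log2 fold change 0.16, SE 0.067, unadjusted p = 0.0294, adjusted p = 0.318), and 255, 261, 251 and 214 in oldest-old GFP (log2 fold change -0.19, adjusted p = 0.0902 against young GFP, called by DESeq2 at 0.0261, alternatives 0.0261 to 0.807).

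Several subunits exist as alternative genes with tissue-specific use, and 8 such pairs were compared as the log2 ratio of counts, with 0.5 added to each. Cox6a2, Cox7a1 and Cox8b are the heart and muscle forms, and Cox6a1, Cox7a2 and Cox8a the forms found in other tissues. The muscle form led in all 24 libraries for Cox6a2 over Cox6a1 and for Cox8b over Cox8a, while Cox7a1 and Cox7a2 were nearer to each other. The log2 ratio of Cox7a1 to Cox7a2 was 0.43, 0.24, 0.47 and 0.53 in young GFP and 0.38, 0.40, 0.19 and -0.23 in oldest-old GFP, where only library 4 was below 0. That of Cox8b to Cox8a was 3.11, 2.61, 2.64 and 3.11 in young and 2.43, 2.80, 2.69 and 2.12 in oldest-old GFP, and 1.64 in oldest-old AAV-Kl 2, the lowest of all. In single genes, Cox8b was 197, 193, 182 and 194 CPM in young and 153, 181, 172 and 121 in oldest-old GFP and fell (log2 fold change -0.29, SE 0.090, adjusted p = 0.0425, alternatives 0.0113 to 0.156, lost without oldest-old GFP 1 (0.0903), oldest-old GFP 4 (0.0830), young GFP 1 (0.0986), young GFP 2 (0.0800), young GFP 3 (0.0544) or young GFP 4 (0.0900)). Cox8a was at 0.04 (adjusted p = 0.921), and -0.17 against young sham, and it ran from -0.03 without young GFP 4 to 0.14 without young GFP 2. Cox6a2 had a log2 fold change of -0.16 and Cox6a1 of -0.10 (adjusted p = 0.330 and 0.845), Cox7a1 of -0.27 and Cox7a2 of -0.08 (adjusted p = 0.1995 and 0.588). Without oldest-old GFP 4 the log2 fold changes were -0.18 for Cox8b, -0.08 for Cox6a2, -0.11 for Cox7a1 and -0.02 for Cox7a2, and that of Cox6a1 ran from -0.20 without young GFP 1 to 0.00 without young GFP 2. Cox6a2 shares 10.3% of its exon bases with Itgad on the other strand.

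The ratio of Cox4i1 to the lung form Cox4i2 was 8.41, 8.04, 8.30 and 8.003 in young GFP, 8.15, 8.26, 7.88 and 8.45 in old GFP and 7.90, 7.77, 8.05 and 7.40 in oldest-old GFP on the log2 scale. Oldest-old GFP 4 was lowest and the groups overlapped, with a difference between oldest-old and young GFP of -0.41 (exact permutation test, p = 0.0857, adjusted p = 0.726). Cox4i2 was near 1 CPM throughout, at 0.859, 0.832, 1.04 and 0.709 in old GFP and 1.05, 1.18, 0.938 and 1.26 in oldest-old GFP (log2 fold change 0.37, SE 0.18, unadjusted p = 0.0618, adjusted p = 0.486), and its log2 fold change against young GFP was 0.22 (adjusted p = 0.468, and 0.14 without young GFP 3). Cox6b1 to Cox6b2, at under 1 CPM for the latter, differed by -0.46 (exact permutation test, p = 0.257, adjusted p = 0.726), and by -0.67 to -0.20 with single libraries left out. Cox6b2 alone differed by 0.17 (SE 0.38, adjusted p = 0.814), a sign that turned to -0.03 without young GFP 4, with 0.04 without oldest-old GFP 4 and 0.40 without young GFP 2. Over the 8 pairs and 6 comparisons, 0 of 48 exact permutation tests had an adjusted p under 0.05 and 0 had an unadjusted p under it, where the smallest p that 4 libraries against 4 allow is 0.0286 and the smallest found was 0.0857. An adjusted p under 0.05 would have needed most of the 48 tests at that floor. The adjusted values therefore could not show a shift in single pairs.

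**Figure D4:**
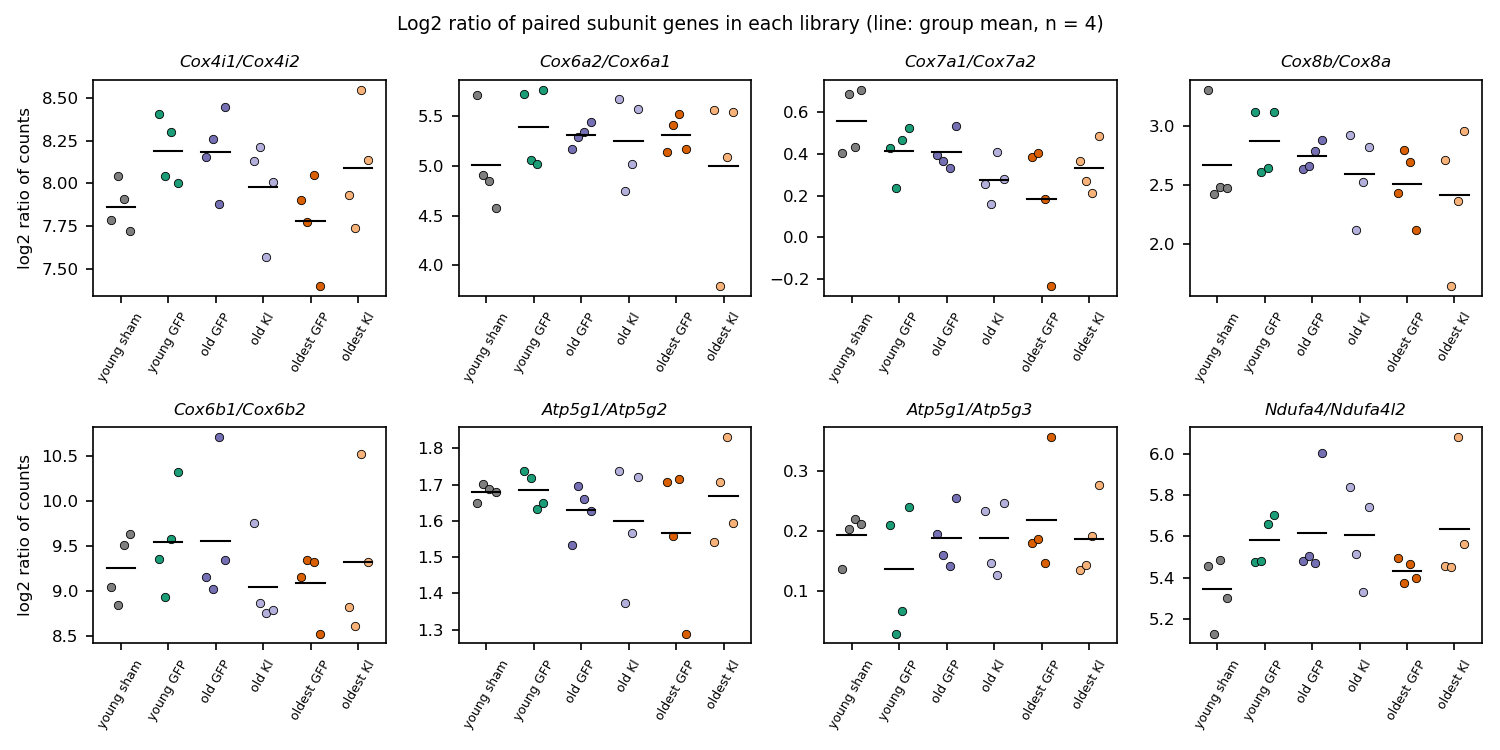
Log2 ratio of counts of 8 pairs of alternative subunit genes in each library (points), by group, with the group mean as a line (n = 4). Oldest-old GFP 4 is lowest of its group for Cox4i1/Cox4i2, Cox7a1/Cox7a2 and Cox8b/Cox8a, and oldest-old AAV-Kl 2 is lowest for Cox6a2/Cox6a1 at 3.79.

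Complex V gave 8 calls of 17 in oldest-old mice, with a median of -0.23, and all 17 genes were below 0. The genes called were Atp5o, Atp5j and Atp5f1 of the peripheral stalk, Atp5d and Atp5e of the central stalk, Atp5g1 and Atp5g3 for the rotor ring, and Atp5k. Atp5h of the peripheral stalk, Atp5c1 of the central stalk and Atp5g2 for the ring did not pass (-0.16, -0.21 and -0.19, adjusted p = 0.188, 0.0916 and 0.0790). The catalytic subunits Atp5a1 and Atp5b were at -0.22 and -0.19 (adjusted p = 0.0720 and 0.0840). Atp5o (ENSMUSG00000022956.11, chr16:91925214-91931687, minus strand), the subunit that joins the stalk to the catalytic head, was the only one of the 92 called at both ages. It had 57.5, 50.2, 49.7 and 46.3 CPM in young sham, 58.8, 58.6, 55.8 and 60.5 in young GFP, 48.6, 47.7, 49.0 and 46.7 in old GFP and 44.6, 48.3, 45.0 and 36.7 in oldest-old GFP. Young GFP was above every old and oldest-old GFP library, while young sham overlapped the old libraries. The decrease was -0.28 in old (SE 0.076, adjusted p = 0.0470) and -0.42 in oldest-old mice (SE 0.077, adjusted p = 0.00228). The first was lost with any library left out (adjusted p 0.0709 to 0.116) and was -0.09 against young sham, with a range of 0.00597 to 0.572 over the alternatives. The second was lost only against young sham, where it was -0.22 with an adjusted p of 0.0676 (range 5.12e-06 to 0.0676). Since Gm15976 shares 18.1% and D430001F17Rik 17.5% of the exon bases of Atp5o on the other strand, and a second Atp5o locus 12.3%, reads on these stretches were left out of its count.

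Atp5j (ENSMUSG00000022890.13, chr16:84827866-84835625, minus strand), coupling factor 6 of the stalk, had 233, 204, 207 and 210.3 CPM in young sham, 243, 237, 228 and 246 in young GFP, 207, 208, 209 and 209 in old GFP and 196, 216, 191 and 130.3 in oldest-old GFP. Old GFP was even, below young GFP, and oldest-old GFP 4 was far below its group. The decrease in oldest-old mice was called (log2 fold change -0.38, SE 0.11, adjusted p = 0.0291), with -0.47 to -0.25 as libraries were left out, the latter without oldest-old GFP 4, and was lost without young GFP 1 (0.0689), young GFP 2 (0.0531) or young GFP 4 (0.0713) (range 0.00593 to 0.161). Against young sham it was -0.22 and was not called. Atp5j shares 12.7% of its exon bases with Gabpa on the other strand. Atp5g1, Atp5g2 and Atp5g3 encode the same mature rotor protein. Atp5g1 had 307, 314, 271 and 292 CPM in young and 248, 268, 251 and 193 in oldest-old GFP (log2 fold change -0.30, SE 0.095, adjusted p = 0.0439), and Atp5g3 had 265, 308, 259 and 248 and 219, 236, 227 and 151 (log2 fold change -0.38, SE 0.11, adjusted p = 0.0350), whereas Atp5g2 was at -0.19 (adjusted p = 0.0790), called by DESeq2 (0.0250) and without oldest-old GFP 2 (0.0203) (alternatives 0.0203 to 0.295). The call of Atp5g1 was lost without oldest-old GFP 1 (0.0685), oldest-old GFP 3 (0.0569), oldest-old GFP 4 (0.119), young GFP 1 (0.105), young GFP 2 (0.105) or young GFP 4 (0.0798) (range 0.0113 to 0.123), and that of Atp5g3 without oldest-old GFP 1 (0.0525), oldest-old GFP 4 (0.0693), young GFP 1 (0.0671), young GFP 2 (0.105) or young GFP 3 (0.0521) (range 0.00724 to 0.159), with a log2 fold change of -0.25 without oldest-old GFP 4. Against young sham Atp5g1 was at -0.22 and Atp5g3 at -0.23, and neither was called.

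Atp5l, subunit g of the membrane part, was the only one of the 17 above 0 between oldest-old and old GFP. It had 32.3, 27.7, 30.4 and 28.0 CPM in young sham, 34.6, 38.5, 34.6 and 33.9 in young GFP, 29.3, 28.5, 31.8 and 29.9 in old GFP and 33.7, 34.7, 34.3 and 34.9 in oldest-old GFP. Young GFP and oldest-old GFP overlapped, and both lay above all libraries of old GFP and of young sham. It was higher in oldest-old than in old GFP (log2 fold change 0.21, SE 0.071, unadjusted p = 0.00985, adjusted p = 0.372) and in young GFP than in young sham (log2 fold change 0.26, SE 0.071, unadjusted p = 0.00164, adjusted p = 0.113), and DESeq2 called the latter. In counts summed over both strand columns these were 0.06 and 0.11, and Gm30934, on the other strand, shares 2.1% of its exon bases. Atp5d (ENSMUSG00000003072.15), the delta subunit of the central stalk, had 308, 326, 308 and 256 CPM in oldest-old GFP and 342, 329, 379 and 316 with AAV-Kl (log2 fold change 0.19, SE 0.071, unadjusted p = 0.0168, adjusted p = 0.657), and 0.12 without oldest-old GFP 4. Of the 4 AAV-Kl values 3 were above the highest GFP value, and the difference from the response in old mice was 0.26 (SE 0.10, unadjusted p = 0.0202, adjusted p = 0.938). Atp5mpl, a small proteolipid of the complex, had 75.6, 82.1, 82.9 and 85.0 CPM in old GFP and 75.2, 72.9, 75.4 and 80.7 in old AAV-Kl (log2 fold change -0.10, SE 0.087, unadjusted p = 0.277, adjusted p = 0.9998).

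**Figure D5:**
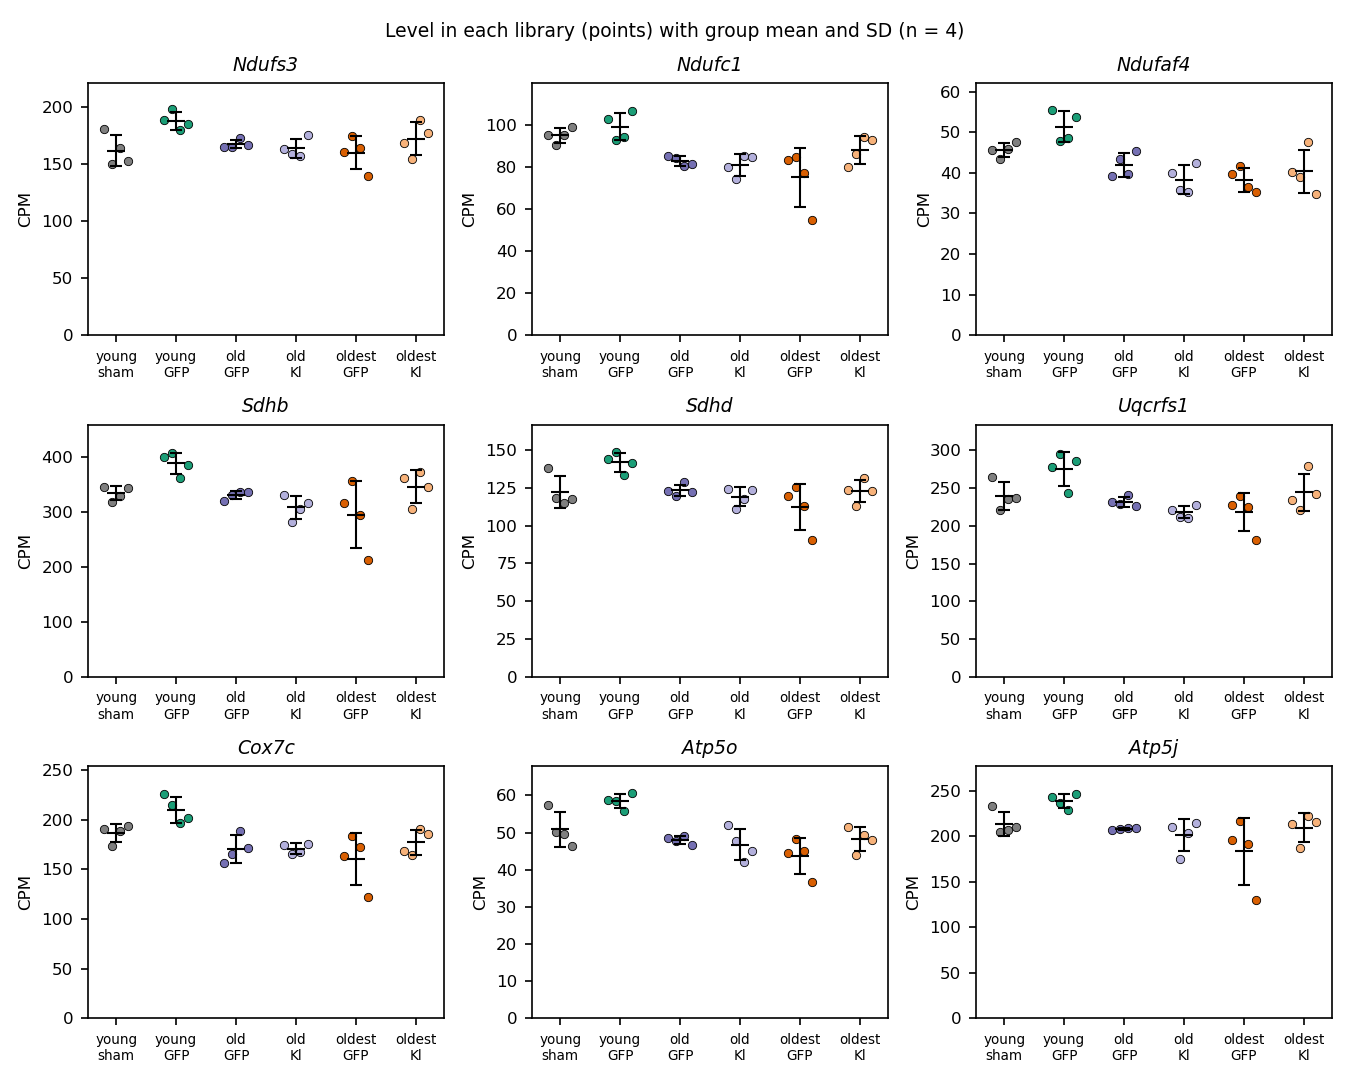
CPM of 9 of the called genes in each library (points) by group, with mean and SD (n = 4), on axes from 0. In all 9 the young GFP mean is the highest of the 6 groups, and oldest-old GFP 4 is the lowest library for each but Ndufaf4, where it is the lowest of its own group.

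Other genes of the same machinery were read from lists. The 13 subunits encoded by mitochondrial DNA, with mt-Co1 the most abundant, summed to 139598, 144290.0, 141805 and 142592 CPM in young sham, 173497, 156711, 138574 and 164525 in young GFP, 145792, 161340.0, 159364 and 177106 in old GFP and 142419, 157194, 153239 and 118997 in oldest-old GFP. The groups overlapped, with oldest-old GFP 4 lowest of the 24 libraries. None of the 13 was called by edgeR in oldest-old against young GFP, 1 had an unadjusted p under 0.05, and the median log2 fold change was -0.15, against -0.01 between old and young GFP. Of 38 assembly factors with names outside the rule, 36 were tested and Pet117 and Sco2 had no reads. In oldest-old against young GFP 7 of them fell and Surf1 rose by 0.20, with a median of -0.20, against 5.22% of all genes lower and 12.9% in either direction. Those that fell were Uqcc1 and Uqcc3, which act on complex III (-0.33 and -0.37), Cox14, Cox16 and Coa5, which act on complex IV (-0.26, -0.56 and -0.34), Atpaf2 of complex V (-0.29) and Foxred1 of complex I (-0.24). The number that fell was 3 without oldest-old GFP 4 or young GFP 4, 4 without young GFP 2 and 1, Uqcc3, without young GFP 1 and 3 together. The increase of Surf1 was called without each single library and lost without that pair (adjusted p = 0.131).

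The TCA cycle, which supplies NADH and succinate, had 6 of 13 genes called lower in oldest-old against young GFP (5.22% of all genes) and a median of -0.23: Idh3a, Idh3b, Dlst, Dld, Suclg1 and Fh1, between -0.32 and -0.27. The number was 1 without oldest-old GFP 4 and 2 without young GFP 1, 2 or 4. Without young GFP 1 and 3 together edgeR called 0, with 10 lower at an unadjusted p under 0.05. Among 17 carriers and feeders of the chain, 16 of them tested, 4 fell and 1 rose, against 12.9% of all genes called. Cycs, cytochrome c itself, fell (log2 fold change -0.45, SE 0.12, adjusted p = 0.0204), as did Gpd2, the glycerol phosphate dehydrogenase that feeds electrons to coenzyme Q (log2 fold change -0.68, SE 0.10, adjusted p = 0.000647), Coq2 and Coq9. Coq8a, a kinase-like gene of coenzyme Q synthesis, rose (log2 fold change 0.40, SE 0.12, adjusted p = 0.0357). Of these 5 calls that of Gpd2 held whichever library was left out and without young GFP 1 and 3 together, with an adjusted p of 0.0127 at most. The number that fell was 2 without oldest-old GFP 4 and 1 without young GFP 1 or 4. The call of Cycs was lost without young GFP 1 (0.0618), young GFP 4 (0.0568) or young GFP 1 and 3 (0.109), and that of Coq8a without oldest-old GFP 1 (0.101), oldest-old GFP 4 (0.0845), young GFP 1 (0.0618), young GFP 3 (0.0995), young GFP 4 (0.0910) or young GFP 1 and 3 (0.208). Without young GFP 1 and 3 Gpd2 was the only call of the list. In old against young GFP 0 of the TCA cycle, carrier and outside assembly genes were called by edgeR, with 0, 1 and 0 by DESeq2, while 3, 4 and 2 were lower at an unadjusted p under 0.05 (7.46% of all genes) and 0, 0 and 1 higher (10.4%). The 2 of 36 outside assembly genes were under that share of 7.46%. The medians were -0.11, -0.09 and -0.06. These comparisons use the same young GFP libraries as those of the 92 genes. The calls of these lists were not recounted with young sham in place of young GFP.

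Of 19 regulators of respiratory genes, Ppargc1a and Ppara fell, and Esrrb and Hif1a rose, in oldest-old against young GFP (4 of 19, against 12.9% of all genes called). In old against young GFP 2 were called (3.55% of all genes), as were 2 between young GFP and young sham (0.471%). Ppargc1a, a coactivator of mitochondrial biogenesis, stood at 38.0, 42.3, 54.1 and 59.0 CPM in young sham, 57.8, 97.4, 146 and 145 in young GFP, 32.8, 55.0, 42.9 and 50.4 in old GFP and 41.8, 38.9, 42.6 and 40.8 in oldest-old GFP. Young GFP was above all old and oldest-old GFP libraries, though young GFP 1 was below young sham 4. Young sham overlapped both old and oldest-old GFP. It fell in old (log2 fold change -1.30, SE 0.21, adjusted p = 0.00339) and in oldest-old mice (log2 fold change -1.44, SE 0.21, adjusted p = 0.000552), and was higher in young GFP than in young sham (log2 fold change 1.20, SE 0.21, adjusted p = 0.0127). Ppara, a receptor that controls fatty acid oxidation, had 7.86, 10.7, 12.8 and 12.7 CPM in young sham, 15.7, 16.3, 13.6 and 17.2 in young GFP, 6.89, 8.12, 9.81 and 8.69 in old GFP and 7.48, 8.46, 6.26 and 4.61 in oldest-old GFP, and fell at both ages (-0.91 and -1.23, adjusted p = 0.0115 and 0.000679). Its young sham libraries too overlapped old and oldest-old GFP. With libraries left out, singly or young GFP 1 and 3 together, both genes stayed called in oldest-old mice, and in old mice Ppara was lost without young GFP 1 and 3 (0.0633), old GFP 1 and 4 (0.135) or all 4 (0.280). All these settings kept young GFP as the reference, and the calls were not recounted with young sham in its place. The difference of Ppargc1a between young GFP and young sham was lost without young GFP 4 (0.0773) or young sham 2 (0.0787). Esrrb, a receptor related to the estrogen receptors, rose by 0.73 and Hif1a, the oxygen-sensitive factor, by 0.47 in oldest-old mice, the former lost without oldest-old GFP 1 (0.0861), oldest-old GFP 4 (0.0518), young GFP 2 (0.0526), young GFP 3 (0.0801), young GFP 4 (0.0779) or young GFP 1 and 3 (0.122). The median of the 19 was -0.02, and Nrf1, Gabpa, Yy1 and Esrra, whose letters were searched in the promoters, were at 0.06, -0.02, -0.07 and -0.17. Nfe2l2, a regulator of antioxidant genes, was higher in young GFP than in young sham (log2 fold change 0.64, SE 0.10, adjusted p = 0.0118), a call lost without young sham 2 (0.0603) or without young GFP 1 and 3 (0.0668).

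Oldest-old against old GFP gave medians of -0.12, -0.12, -0.11, -0.08 and 0.01 for mitochondrial DNA subunits, outside assembly factors, TCA cycle, carriers and regulators, in that order, and old AAV-Kl against old GFP gave -0.03, -0.06, -0.04, -0.07 and -0.05. In oldest-old AAV-Kl against GFP the medians were 0.01, 0.08, 0.11, 0.13 and 0.01, and 0 genes of the 5 lists were called by edgeR or DESeq2 in any of these comparisons. At an unadjusted p under 0.05 the lists held, in that order, 1, 7, 1, 2 and 0 genes in the first, 0 in each in the second and 0, 6, 1, 0 and 2 in the third, counted in either direction. Over all genes tested these shares were 10.7%, 1.88% and 7.19%, so that several of the counts lay near or under them.

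Marker genes of other cells were compared in the same fits. In oldest-old against young GFP 1348 of all 17476 genes tested were called higher and 912 lower. All 6 erythroid genes were called higher there with a median of 2.48, where oldest-old GFP 1 and 4 held 605 and 665 CPM and the other 2 held 116 and 90.2. The number called was 1 without oldest-old GFP 1, 0 by edgeR without oldest-old GFP 4 or young GFP 1, 2 without young GFP 2 or 3 and 3 without young GFP 4, and 0 without young GFP 1 and 3 together, with 6 at an unadjusted p under 0.05 each time. Of 10 keratinocyte genes 5 were called lower, where young GFP 1 and 3 held 140.3 and 429.6 CPM and young GFP 2 and 4, with 1.40 and 0.990, lay near the oldest-old GFP libraries. The number was 0 by edgeR without oldest-old GFP 1, 2 or 4 or young GFP 1 or 3, with 9 or 10 lower at an unadjusted p under 0.05, and 1 without oldest-old GFP 3. Without young GFP 1 and 3 together edgeR called 0, and 0 had an unadjusted p under 0.05. Egfl7 and Emcn of 8 endothelial genes were called higher (list median 0.27), and Col1a1 and Col1a2 of 10 fibroblast and tendon genes lower (list median -0.36). Jchain of 8 lymphocyte genes was called higher, while 6 of the 8 were below 0 (list median -2.47). Emcn was lost without oldest-old GFP 1 or young GFP 1, 3 or 4 (adjusted p 0.0548 to 0.0756), and Jchain without oldest-old GFP 1 (0.0740), young GFP 1 (0.0551) or young GFP 4 (0.0518). Without young GFP 1 and 3 together Egfl7 alone of these 5 was called. The hepatocyte, adipocyte, macrophage and Schwann cell lists had 0 calls there by edgeR (and 0, 0, 1 and 0 by DESeq2), with 0, 0, 3 and 2 genes higher at an unadjusted p under 0.05 (16.4% of all genes). In old against young GFP 431 of all 17476 genes tested were called higher. Of the hepatocyte genes 16 were called higher there, where old GFP 1 and 4 held 1287 and 225 CPM and old GFP 2 and 3, with 52.0 and 49.5, lay within the young GFP range. The number was 0 by edgeR without old GFP 1 or young GFP 1, 3 or 4, and 1 without young GFP 2, with 17 higher at an unadjusted p under 0.05 each time. Without old GFP 1 and 4 together edgeR called 0 and 0 had an unadjusted p under 0.05. For keratinocyte genes in the same comparison edgeR called 0 and DESeq2 5, and 10 were lower at an unadjusted p under 0.05 (0 without young GFP 1 and 3).

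Between oldest-old and old GFP all 6 erythroid genes were higher (median 1.65) and 17 of 19 hepatocyte genes lower (median -8.28) at an unadjusted p under 0.05 (5.99% and 4.67%). Of the former 0 were called by either tool, and of the latter 0 by edgeR and 14 by DESeq2. The erythroid number was 2 without oldest-old GFP 1, 0 without oldest-old GFP 4, 3 without old GFP 2 and 1 without old GFP 1 and 4, and the hepatocyte number was 16 to 18 without single libraries and 0 without old GFP 1 and 4. With AAV-Kl in oldest-old mice 5 of the 6 erythroid genes were lower at that p (median -1.43, 3.58% of all genes), with 0 called by either tool, where the AAV-Kl libraries held 153, 180.2, 128 and 106 CPM. That number was 0 without oldest-old GFP 1, oldest-old GFP 4 or oldest-old AAV-Kl 4, 2 without oldest-old AAV-Kl 3 and 3 without oldest-old AAV-Kl 1. The AAV-Kl responses at these ages differed in the same 6 genes by a median of -2.55, with 5 lower at that p (2.73% of all genes), 3 without oldest-old GFP 4 or old AAV-Kl 1, and 0 called by either tool. In old mice 8 hepatocyte genes were lower with AAV-Kl at that p (median -2.57, 0.853% of all genes), with 0 called by either tool, and 0 were lower without old GFP 1 or old AAV-Kl 1, 2 or 3. Without old GFP 4 it was 6, without old GFP 2 or 3 it was 13 and without old AAV-Kl 4 it was 16, while 13 were higher without old GFP 1 and 4. Between young GFP and young sham 9 hepatocyte, 5 endothelial and 5 macrophage genes were lower at that p (8.61% of all genes), with medians of -4.68, -0.31 and -0.81. For these lists edgeR called 0, and DESeq2 1, 0 and 0. The numbers were 0, 1 and 0 without young GFP 1 and 3, and with single libraries left out they ran from 1 (without young sham 4) to 13 (without young sham 1), from 3 to 4 and from 0 (without young GFP 4 or young sham 2) to 7 (without young sham 1). The part of these cells in the values of the 92 genes was not tested.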

How the data were processed

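RNA of gastrocnemius muscle was measured in 24 libraries. The authors aligned reads with STAR 2.7.0a to GRCm38/mm10 and deposited read counts per gene, and the annotation release was not given in the sources used here. Counts without strand were used, since the strand columns held near equal shares, and reads on several places or genes were on no gene (9.78% to 12.2% and 5.36% to 5.90% of reads). Of 55385 gene IDs, 54487 matched GENCODE M21 with version and 657 without, and 241 had no symbol.

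Counts were scaled by TMM, filtered by filterByExpr and tested with edgeR 4.0.16 (quasi-likelihood, Benjamini-Hochberg adjustment over all genes tested) in R 4.3.3. Comparisons of the GFP and AAV-Kl groups used a fit of 20 libraries, and young GFP against young sham a fit of 24. Log2 ratios of isoform pairs were compared by an exact two-sided permutation test with 70 splits. Scripts were tested on simulated data. The members and lists were chosen with earlier results of these data known. Genes were named by rule: per comparison and class, the 2 called genes with the greatest absolute log2 fold change, or, with fewer than 2 calls, filled to 1 by the smallest unadjusted p, plus the isoform genes in oldest-old against young GFP. Genes of the other lists were named after their values were seen.

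Alternatives were DESeq2 1.42.0, its size factors in edgeR, no filter, only the groups compared, all 24 libraries, a replicate block, the sum of the strand columns, another count added to ratios and each library left out. Leaving out young GFP 1 and 3, old GFP 1 and 4, or all 4, using young sham in place of young GFP, and recounting the genes of the other lists with libraries left out, were chosen after seeing the data. Python 3.11.15 was used for summaries, and RefSeq promoters were on GRCm38.p6.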

Additional observations from a re-analysis of the deposited data

Results flagged for a closer look

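Single libraries were compared with the other 3 of their group by the gap between the most extreme value and its neighbour, as a share of the group's range. Gaps over the 95% critical value of Dixon were picked out, and chance gives about 1 in 20 such groups. Of 342 group values tested 29 were picked out, 9 of them in young sham 1. No cause was tested.

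In the median log2 deviation of the 92 genes, young GFP 3 was lowest at 0.06 (lowest, gap 0.86). For complex I assembly factors the deviation was 0.10 in young sham 1 (highest, gap 0.881), 0.08 in old GFP 4 (highest, gap 0.84) and -0.52 in oldest-old GFP 4 (lowest, gap 0.873). For complex II it was 0.10 in young sham 1 (highest, gap 0.859), for complex IV -0.03 in old AAV-Kl 1 (highest, gap 0.845) and for complex V 0.01 in old GFP 3 (highest, gap 0.942).

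In young sham 1 the CPM of several genes stood above the group: Atp5g1 301 (gap 0.905), Atp5g2 96.0 (gap 0.836), Atp5g3 274 (gap 0.967), Cox6a2 859 (gap 0.855), Ndufa2 55.3 (gap 0.912), Sdhd 138 (gap 0.846). The log2 ratio Cox8b/Cox8a 3.30 in young sham 1 (highest, gap 0.935) was apart there as well. In young GFP the CPM values were Atp5l 38.5 in young GFP 2 (highest, gap 0.843) and Ndufv1 228 in young GFP 3 (lowest, gap 0.903). In old GFP they were Cox5a 196 in old GFP 1 (highest, gap 0.83), Ndufv1 235 in old GFP 1 (lowest, gap 0.966) and Ndufa2 46.6 in old GFP 4 (lowest, gap 0.878), with the log2 ratio Ndufa4/Ndufa4l2 6.01 in old GFP 4 (highest, gap 0.936). In old AAV-Kl they were Cox6b1 210.2 in old AAV-Kl 1 (highest, gap 0.849) and Ndufb2 4.71 in old AAV-Kl 3 (lowest, gap 0.877), with the log2 ratio Cox6b1/Cox6b2 9.76 in old AAV-Kl 1 (highest, gap 0.888). In oldest-old GFP they were Ndufaf7 11.2 in oldest-old GFP 4 (lowest, gap 0.878) and Uqcrb 172 in oldest-old GFP 4 (lowest, gap 0.849). In oldest-old AAV-Kl they were Atp5g2 74.4 in oldest-old AAV-Kl 2 (lowest, gap 0.835), Cox6a1 47.8 in oldest-old AAV-Kl 2 (highest, gap 0.844), Cox4i1 313 in oldest-old AAV-Kl 3 (highest, gap 0.874) and Ndufab1 49.7 in oldest-old AAV-Kl 3 (highest, gap 0.917).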

How the results depend on the processing

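The number of genes called in old against young GFP was 1, and it was 2 with DESeq2 size factors in edgeR, 0 with no filter, 7 by DESeq2, 21 with only the groups compared, 3 with all 24 libraries and 2 with the sum of strand columns. It was 0 with each library of either group left out in turn. It was also 0 without young GFP 1 and 3, without old GFP 1 and 4, without all 4 and with young sham in place of young GFP. In oldest-old against young GFP the number was 37, and it was 17 with no filter, 59 by DESeq2, 4 with only the groups compared, 10 to 49 with each library left out, 4 without young GFP 1 and 3, and 6 with young sham in place of young GFP. In young GFP against young sham DESeq2 called 1 where edgeR called 0. The median log2 fold change in old against young GFP was -0.022 with young sham. The settings with several libraries left out and with young sham were chosen after seeing the data, and the cause of these differences was not tested.

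In 1 of 15 pairs of groups, young GFP and old AAV-Kl, all 4 correlations of same-numbered libraries were over 0.1 (0.118 to 0.281). The other pairs of groups did not reach this, and the numbers were not taken to pair samples. With the replicate block the number called was 0 in old against young GFP and 24 in oldest-old against young GFP, and the medians for the 6 comparisons were -0.15, -0.23, -0.09, -0.06, 0.14 and 0.13.

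With young sham in place of young GFP the sign turned for Ndufs3 (0.048) and Sdhd (0.014) in old mice and for Cox6b2 (-0.0014), Cox7a2 (0.081) and Cox8a (-0.17) in oldest-old mice. With a library left out, the log2 fold change in oldest-old against young GFP ran from -0.20 to 0.0035 for Cox6a1, from -0.032 to 0.40 for Cox6b2 and from -0.030 to 0.14 for Cox8a. Differences of log2 ratios whose sign turned are given by their range over libraries left out. For AAV-Kl in old mice these were Atp5g1/Atp5g2 -0.076 to 0.046, Atp5g1/Atp5g3 -0.018 to 0.023, Cox6a2/Cox6a1 -0.20 to 0.11, Cox8b/Cox8a -0.25 to 0.014 and Ndufa4/Ndufa4l2 -0.089 to 0.12. For oldest-old against old GFP these were Atp5g1/Atp5g2 -0.11 to 0.030, Atp5g1/Atp5g3 -0.016 to 0.053 and Cox6a2/Cox6a1 -0.070 to 0.055. For young GFP against young sham these were Atp5g1/Atp5g2 -0.013 to 0.022. For AAV-Kl in oldest-old mice these were Atp5g1/Atp5g3 -0.061 to 0.015, Cox6a2/Cox6a1 -0.50 to 0.091, Cox6b1/Cox6b2 -0.17 to 0.47 and Cox8b/Cox8a -0.27 to 0.17. For old against young GFP these were Cox4i1/Cox4i2 -0.092 to 0.099, Cox6a2/Cox6a1 -0.21 to 0.040, Cox6b1/Cox6b2 -0.37 to 0.27, Cox7a1/Cox7a2 -0.067 to 0.030 and Ndufa4/Ndufa4l2 -0.094 to 0.084. For oldest-old against young GFP these were Cox6a2/Cox6a1 -0.21 to 0.040. In old against young GFP Cox4i1/Cox4i2 was 0.0072 with the sum of strand columns and Cox6b1/Cox6b2 was -0.043 with 5 added to counts.

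Of the log2 fold changes of named genes with a library left out, 559 kept direction and side of the threshold, 60 lost the call, 1 gained it and 4 turned. Under other settings 518 kept both, 67 lost the call, 14 gained it and 5 turned. Depth limits Cox6b2 and Cox4i2 most. The groups held 4 libraries each.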
